A study of Mus musculus with 10 samples.

Results

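The ephrin ligand genes Efna1 to Efna5 and Efnb1 to Efnb3 were examined in RNA-Seq counts of cardiomyocytes isolated from mouse hearts on day 4 after myocardial infarction (MI). The family was chosen from the contrast of these same libraries, in which Efnb3 and Efna5 were already known to be lower, and its members are the 8 of 51789 genes in the table whose Ensembl identifier carries one of these symbols in the GENCODE M21 annotation. Of the 8 genes, 7 passed the filter on low counts, and Efna3 did not. Mice of the TgGRK5-MI group carried a transgene that overexpresses the G protein-coupled receptor kinase GRK5 in cardiomyocytes only. Mice of the NLC-MI group were their littermates without the transgene. Both groups had undergone MI, with 5 mice per group and 1 library per mouse. No sham-operated hearts were sequenced in these 10 libraries, so the comparison speaks to genotype after MI and not to MI itself. The labels give neither age nor sex. In every library Y-linked expression lay far above Xist (Xist minus Y-linked on the log2 scale, -8.94 to -7.74), as in male mice.

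Ephrins are ligands held on the cell surface, and their receptors, the Eph receptor tyrosine kinases, sit on neighbouring cells. Ephrin-A proteins are anchored by a lipid and mainly bind EphA receptors, whereas ephrin-B proteins cross the membrane and mainly bind EphB receptors and EphA4. Binding signals both ways, forward through the receptor and in reverse through the ligand, and in the heart the pair ephrin-B2 and EphB4 is known for separating arterial from venous endothelium.

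The libraries held from 7968779 to 23381527 counts, and 3 counts, taken as the floor of the depth, corresponded to 0.121 to 0.393 CPM (counts scaled to library size with TMM factors). The floor covers counting error only. Grk5 itself lay between 46.5 and 73.1 CPM without the transgene and between 552.3 and 1700 CPM with it. All 8 cardiomyocyte markers were detected, with a summed level of 47439 to 121610 CPM in NLC-MI and 50601 to 97809 CPM in TgGRK5-MI. RNA of other cells was present too. Endothelial markers summed to between 995 and 1907 CPM over all libraries, fibroblast markers to between 4031 and 24766 CPM and macrophage markers to between 718 and 2372 CPM, and the ranges of the groups overlapped for each of the 10 marker lists. In such a preparation, fewer cells of a type and less RNA per cell cannot be told apart.

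RefSeq promoter windows of GRCm38.p6, from 250 bases before to 50 bases after a transcription start, were matched for 7 members, Efna1 to Efna5, Efnb1 and Efnb2, and that of Efnb3 was not analysed here. The stretches before the start of Efna5, which was lower in TgGRK5-MI, and of Efnb2, a family member of a higher level whose groups overlapped, are shown 5′ to 3′ on the minus strand with each GC box (GGGCGG, either strand) in capitals. They lie at chr17:62881318-62881567 and chr8:8661243-8661492.
Efna5: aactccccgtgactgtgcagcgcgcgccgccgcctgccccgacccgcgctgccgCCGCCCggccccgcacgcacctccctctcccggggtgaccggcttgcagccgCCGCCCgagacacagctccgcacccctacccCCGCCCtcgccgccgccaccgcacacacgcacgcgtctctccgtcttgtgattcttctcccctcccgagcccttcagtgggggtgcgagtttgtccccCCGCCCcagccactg
Efnb2: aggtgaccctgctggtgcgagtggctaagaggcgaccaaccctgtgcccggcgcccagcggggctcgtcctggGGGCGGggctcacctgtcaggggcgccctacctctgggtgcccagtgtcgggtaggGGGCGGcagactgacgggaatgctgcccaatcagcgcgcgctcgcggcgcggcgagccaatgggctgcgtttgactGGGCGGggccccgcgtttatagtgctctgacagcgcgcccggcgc
Efna5 had 4 GC boxes in its window and Efnb2 had 3, whereas 35.7% of the 32851 mouse promoter windows of this length held at least 1. Both were rich in G and C, at 73.3% and 72.3%, with 38 and 35 CpG dinucleotides, against a median of 52.7% and 7 over all windows. Windows of the other members ranged from 55.7% (Efna4) to 74.7% (Efna2) in G and C, and from 11 (Efna4) to 34 (Efna3) in CpG dinucleotides. GC boxes were also found in Efna1, Efna2 and Efna3, and 0 in Efna4 and Efnb1. A TATA box (TATAAA, either strand) was found in Efnb2, in none of the other members with a window, and in 13.6% of all windows. Neither the E-box CACGTG nor a MEF2 site was found in any of the 7 members searched (7.15% and 0.557% of all windows). The NFAT core GGAAAA (23.4% of all windows) was found in Efna1, and the RBPJ site TGGGAA (25.6%) in Efna3 and Efnb1, on either strand. These matches describe the letters of the windows and say nothing about binding.

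Efnb3, the transmembrane ligand best known from axon guidance at the midline, separated the groups most widely. The gene (ENSMUSG00000003934) lies on the minus strand of chromosome 11 from 69554092 to 69560205 and is protein coding. Its level in NLC-MI replicates 1 to 5 was 25.1, 29.6, 34.3, 38.5 and 99.2 CPM, from 262 to 1515 counts. In TgGRK5-MI it was 11.5, 9.12, 13.1, 7.0 and 7.62 CPM, from 65 to 258 counts. Every TgGRK5-MI library lay below every NLC-MI library, and NLC-MI replicate 5 stood far above the other 4. The means with their SD over 5 libraries were 45.3 ± 30.5 and 9.68 ± 2.60 CPM. Fitted on the log2 scale, the difference was -2.22 (standard error 0.37), 4.67-fold lower in TgGRK5-MI. It was -1.72 without NLC-MI replicate 5 and -2.40 without NLC-MI replicate 1, the ends of its range when each library was left out.

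Efna5, a lipid-anchored ligand that acts as a repellent for growing axons, was the other member whose groups did not overlap. The gene (ENSMUSG00000048915) covers chromosome 17 from 62604184 to 62881317 on the minus strand. NLC-MI libraries were at 9.82, 9.72, 11.5, 10.7 and 13.4 CPM and TgGRK5-MI libraries at 8.14, 6.63, 7.04, 6.89 and 4.78 CPM. The spread within each group was small beside the gap in means, 11.0 ± 1.52 against 6.70 ± 1.22 CPM (SD over 5 libraries). On the log2 scale the difference was -0.72 (standard error 0.18), or 1.65-fold lower, and ranged from -0.81 to -0.62 as libraries were left out in turn.

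**Figure D1:**
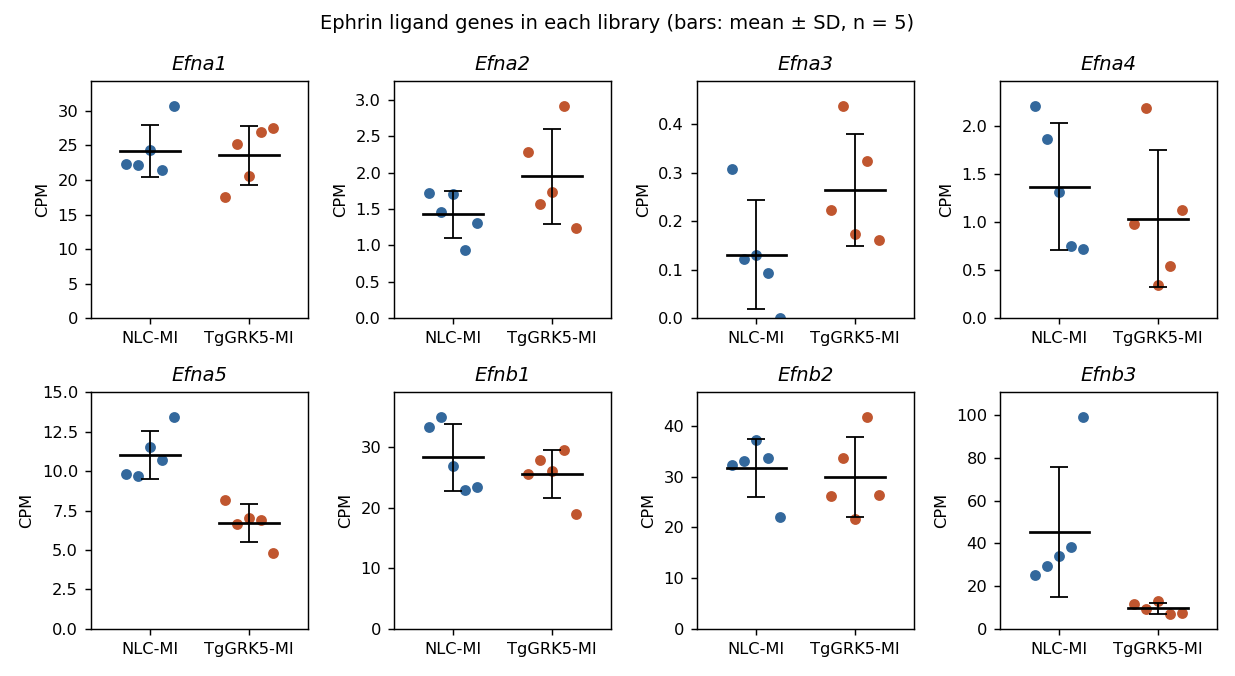
Each panel shows 1 ephrin ligand gene, with CPM on a linear axis from 0 and the libraries of NLC-MI and TgGRK5-MI as points; black bars are the mean ± SD of 5 libraries. The TgGRK5-MI points lie below all NLC-MI points for Efna5 and Efnb3, and the groups overlap in the other 6 panels.

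Efnb1 and Efnb2, the other transmembrane ligands, overlapped between the groups. Efnb1 (ENSMUSG00000031217, chromosome X from 99136130 to 99148991), known for its part in tissue boundaries, was at 33.3, 35.0, 27.0, 22.99 and 23.5 CPM in NLC-MI. In TgGRK5-MI it was at 25.5, 27.8, 26.2, 29.5 and 19.0 CPM. Its log2 fold change of -0.15 had a 95% interval from -0.52 to 0.23. In limma-voom it was -0.37 (unadjusted p = 0.0404, adjusted p = 0.400). Efnb2 (ENSMUSG00000001300, chromosome 8 from 8617434 to 8661242), the arterial endothelial ligand, was at 32.3, 33.1, 37.2, 33.7 and 22.1 CPM in NLC-MI and at 26.2, 33.6, 21.7, 41.7 and 26.3 CPM in TgGRK5-MI. Its lowest value, 21.7 CPM, and its highest, 41.7 CPM, were both in TgGRK5-MI, and the log2 fold change of -0.08 (95% interval from -0.52 to 0.35) had no stable sign across the settings tried.

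Among the lipid-anchored ligands, Efna1 was by far the most abundant. Efna1 (ENSMUSG00000027954, chromosome 3 from 89271733 to 89281142), first described as a gene induced by tumour necrosis factor in endothelial cells, was at 22.4, 22.2, 24.3, 21.4 and 30.6 CPM in NLC-MI and at 17.5, 25.2, 20.6, 26.9 and 27.5 CPM in TgGRK5-MI. The groups overlapped widely, with a log2 fold change of -0.04 (95% interval from -0.40 to 0.33). Efna3 and Efna4 lie next to Efna1 on chromosome 3, at 89313899 to 89322965 and at 89333390 to 89338028. Efna4 (ENSMUSG00000028040) had from 4 to 50 counts per library, with means of 1.37 ± 0.661 and 1.04 ± 0.715 CPM in NLC-MI and TgGRK5-MI (SD). Its 95% interval ran from -1.37 to 0.69 on the log2 scale, so that a change in either direction was not detectable unless it was large. How much of this width came from low counts and how much from spread between libraries was not tested. Efna4 shares 168 exon bases with the antisense gene 4731419I09Rik, which had 0 counts. Efna2 (ENSMUSG00000003070, chromosome 10 from 80179482 to 80190010) was the only tested member with a positive log2 fold change, 0.44 (95% interval from -0.19 to 1.07), at 1.42 ± 0.321 and 1.95 ± 0.657 CPM. Its ranges, from 0.938 to 1.72 CPM in NLC-MI and from 1.23 to 2.91 CPM in TgGRK5-MI, overlapped. Efna3 (ENSMUSG00000028039) had 7, 3, 1, 2 and 0 counts in NLC-MI and 5, 10, 2, 3 and 3 counts in TgGRK5-MI. Most of these values were at or under the floor of 3 counts, and 344 of its exon bases are shared with the antisense gene Gm15998 (27 counts in all), so no fold change is given.

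Counted over the family, 1 of the 7 tested members (Efnb3) had an edgeR adjusted p under 0.10, in the lower direction, as did 0.0263% of the 15232 genes tested. That value was 0.0947, and it lay between 0.130 and 0.367 when any library other than NLC-MI replicate 5 was left out. At an unadjusted p under 0.05, 2 members (Efnb3 and Efna5) were lower and 0 were higher, against 2.08% and 1.77% of all genes tested. The same 2 had all TgGRK5-MI libraries below all NLC-MI libraries, as had 0.42% of all genes tested. The median log2 fold change was -0.15 over the 7 members, 6 of them negative, and 0.0013 over all genes. Since the family was proposed with this contrast known, these counts are a description only.

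**Figure D2:**
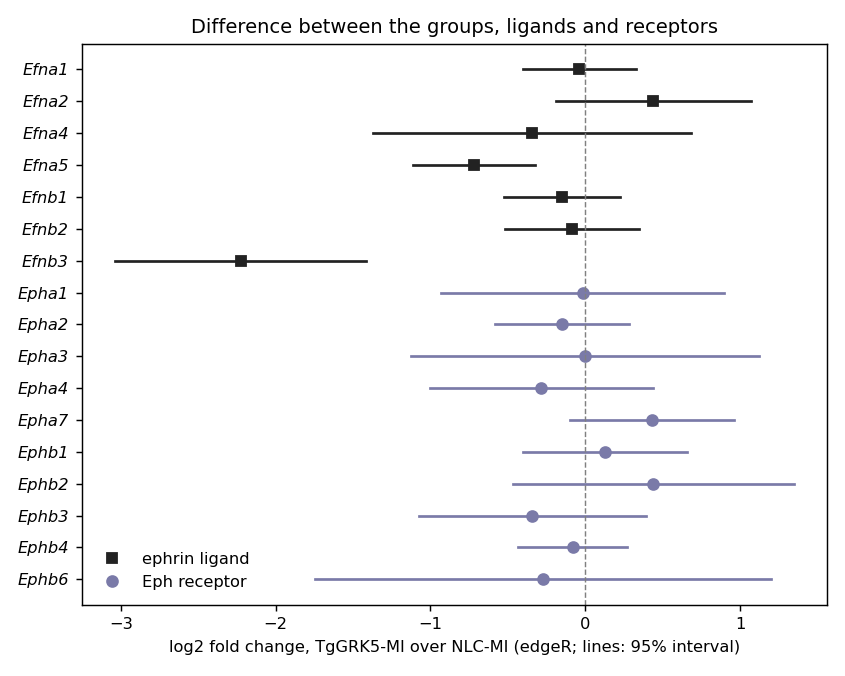
Log2 fold changes of TgGRK5-MI over NLC-MI from edgeR on the horizontal axis for the 7 tested ephrin ligands (squares) and 10 tested Eph receptors (circles); lines are 95% intervals. The intervals of Efnb3 (-3.04 to -1.41) and Efna5 (-1.11 to -0.32) lie below 0, and those of the other ligands and of all 10 receptors include it. Over all genes tested, the edgeR adjusted p was 0.0947 for Efnb3 and 0.510 for Efna5.

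Levels were compared between genes per kilobase of exon. In NLC-MI, Efnb3 and Efna1 stood at the head of the family, at 14.2 ± 9.59 and 13.2 ± 2.05 CPM per kb. Efnb1 followed at 8.21 ± 1.61, Efnb2 at 4.62 ± 0.829 and Efna5 at 2.74 ± 0.377 CPM per kb. The order of the first few was not fixed, since Efna1 exceeded Efnb3 in 3 of 5 NLC-MI libraries and Efnb3 exceeded Efnb1 in 3 of 5. Efna4, Efna2 and Efna3 were the least abundant, at 0.856, 0.669 and 0.0538 CPM per kb. Efna4 and Efna2 overlapped in range, and Efna3 was below both.

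In TgGRK5-MI, Efna1 led at 12.9 ± 2.36 CPM per kb, above Efnb3 in 5 of 5 libraries, and Efnb3 was at 3.04 ± 0.817 CPM per kb, above Efnb1 in 0 of 5 libraries. Efnb1 was at 7.42 ± 1.16, Efnb2 at 4.36 ± 1.14 and Efna5 at 1.66 ± 0.302 CPM per kb. Summed over the 3 ephrin-B genes, the level was 27.1 ± 7.92 CPM per kb in NLC-MI and 14.8 ± 1.91 in TgGRK5-MI, and over the 5 ephrin-A genes 17.5 ± 2.20 and 16.2 ± 2.28. The ephrin-B difference lay mostly in Efnb3 (14.2 and 3.04), with Efnb1 at 8.21 and 7.42 and Efnb2 at 4.62 and 4.36 CPM per kb. Efnb3 made up 29.9% ± 11.9 of the family's sum in NLC-MI and 10.01% ± 3.37 in TgGRK5-MI, and the share of Efna1 was 29.9% ± 1.90 and 41.4% ± 6.32 (SD, n = 5 each). Such shares are tied to each other, so that a lower share of Efnb3 raises the others.

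**Figure D3:**
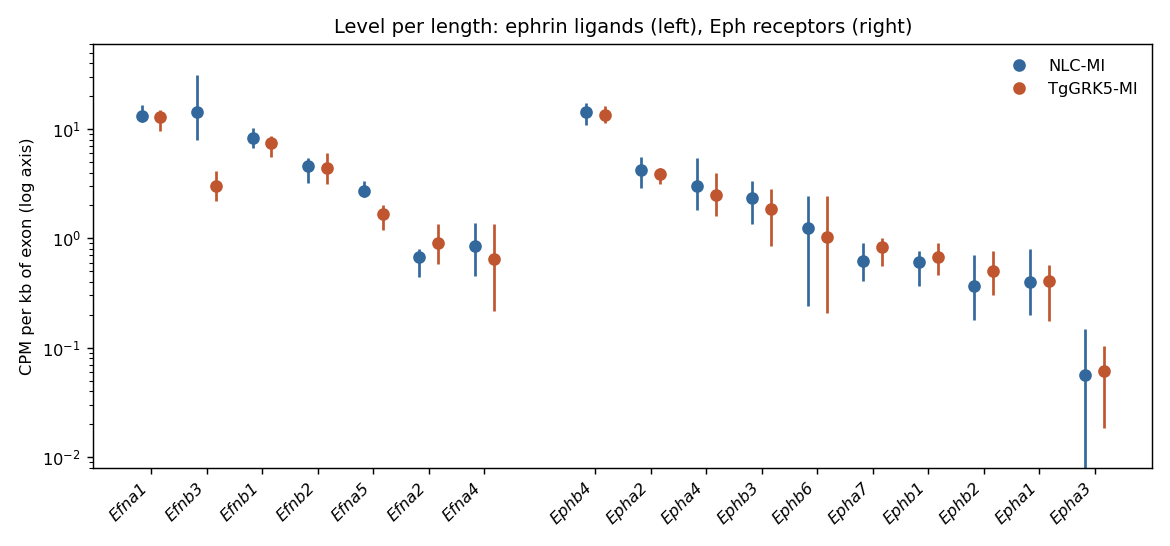
CPM per kilobase of exon on a log axis for the tested ephrin ligands (left) and Eph receptors (right), with NLC-MI in blue and TgGRK5-MI in orange; points are group means and lines run from the lowest to the highest library, down to the axis for Epha3, which was at 0 in an NLC-MI library. Efnb3 is the gene whose level differs most, at 14.2 CPM per kb in NLC-MI and 3.04 in TgGRK5-MI, and Ephb4 is the most abundant receptor.

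The receptors were then compared. The choice of the family did not use them, but their lists were drawn up with earlier results of these data known. Of 14 Eph receptor genes, 10 passed the filter and Epha5, Epha6, Epha8 and Epha10 did not. With an unadjusted p under 0.05, 0 receptors were higher and 0 lower in edgeR, against 1.77% and 2.08% of all genes tested. In DESeq2 and limma-voom 0 receptors reached this level. At such shares, 10 genes are too few for a count of 0 to set the receptors apart from other genes. The median log2 fold change of the 10 was -0.05, with 3 positive and 7 negative. Under other settings, Ephb2 was higher with the replicate number as a block (log2 fold change 0.55, edgeR unadjusted p = 0.0388, adjusted p = 1.00). Epha7 was higher without NLC-MI replicate 1 (log2 fold change 0.59, edgeR adjusted p = 0.898) or without TgGRK5-MI replicate 5 (0.55, edgeR adjusted p = 0.999), each with an unadjusted p under 0.05.

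Ephb4, the venous partner of ephrin-B2, was the most abundant EphB receptor with means of 66.2 ± 12.5 and 62.7 ± 9.08 CPM in NLC-MI and TgGRK5-MI (SD over 5 libraries, here and for the receptors and partners that follow). Its 95% interval on the log2 scale ran from -0.43 to 0.27. Ephb3 was at 15.7 ± 5.55 and 12.3 ± 5.61 CPM (log2 fold change -0.34, 95% interval from -1.07 to 0.39). Ephb6, whose kinase domain is inactive, varied from 0.782 to 9.25 CPM between libraries, with an interval from -1.74 to 1.2. Among EphA receptors, Epha2, a receptor of ephrin-A1, was at 19.9 ± 5.44 and 17.9 ± 2.25 CPM (95% interval from -0.58 to 0.28). Epha4, which binds ligands of both classes, was at 24.4 ± 11.1 and 20.01 ± 8.46 CPM, and its interval ran from -1.0 to 0.44. Epha7 was at 6.13 ± 1.87 and 8.31 ± 1.78 CPM, a log2 fold change of 0.43 with an interval from -0.10 to 0.96. The intervals of Ephb4 and Epha2 were narrow. Most of the other tested receptors, among them Ephb6, Ephb3, Epha4, Epha7 and Ephb2, had intervals that allowed a difference as large as that of Efna5, lower or higher.

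Proteins that cut ephrins or pass on their signals were listed from general knowledge, 49 genes in all, of which 48 were tested. These lists too were made with earlier results of these data known. Of the 11 genes of shedding and cleavage (such as Adam10 and the presenilins) and the 16 of ephrin-B reverse signaling (such as the adaptors Grip1 and Nck1), 0 had an unadjusted p under 0.05 in edgeR in either direction, with median log2 fold changes of 0.07 and -0.05. Other settings called some of them at this level, each with an adjusted p of 0.377 or more. Aph1b was higher and Pard6b lower in limma-voom. Grip2 was lower in DESeq2 and, in edgeR, with library size alone, no filter or the cardiomyocyte marker covariate, and without NLC-MI replicate 1 or TgGRK5-MI replicate 1 or 3. Aph1a was lower without NLC-MI replicate 3. Of 21 tested genes of forward signaling, 2 were lower and 0 higher. Inppl1, which encodes the lipid phosphatase SHIP2 that binds EphA2, was at 187.3 ± 34.1 CPM against 135.1 ± 18.1 CPM in TgGRK5-MI (log2 fold change -0.47, standard error 0.16, edgeR unadjusted p = 0.0130, adjusted p = 1.00). Abl2, a tyrosine kinase of the cytoskeleton, was at 33.7 ± 6.57 and 25.3 ± 4.96 CPM (log2 fold change -0.42, standard error 0.18, edgeR unadjusted p = 0.0436, adjusted p = 1.00). The groups overlapped for both genes and neither passed the adjustment. Of all genes tested, 2.08% were lower and 1.77% higher at this level. In this list Kalrn was also lower in limma-voom, Arhgef15 was lower without TgGRK5-MI replicate 4, and Arhgef16 was higher with no filter. Inppl1 kept an unadjusted p under 0.05 in all 19 alternatives. Abl2 lost it with library size alone, no filter or the Xist and Y-linked covariate, and without NLC-MI replicate 1, 2 or 4 or TgGRK5-MI replicate 3, 4 or 5.

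The level of Efnb3 went with that of cardiomyocyte RNA inside each group. Both measures were highest in NLC-MI replicate 5, which held 99.2 CPM of Efnb3 and 121610 CPM of the 8 markers. In TgGRK5-MI both were highest in replicate 3, at 13.1 and 97809 CPM. The correlation of Efnb3 with the marker list, after centring each group on its mean, was r = 0.89 over the 10 libraries, and all 8 markers had a positive r (0.49 to 0.90). Without centring, r was 0.54 (permutation p = 0.112, adjusted p = 0.436 over 70 relations) and rho was 0.50 (permutation p = 0.143, adjusted p = 0.515), and r was 0.34 without the 2 libraries farthest from the median marker level. Since the groups stand apart in Efnb3 and hold 5 libraries each, the centred value is a description. Efnb3 per 1000 CPM of the markers was 0.529, 0.451, 0.465, 0.542 and 0.815 in NLC-MI and 0.153, 0.180, 0.134, 0.115 and 0.128 in TgGRK5-MI. The groups did not overlap on this scale either, the ratio of the means was 3.95, and the coefficient of variation in NLC-MI was 26.4% against 67.3% for CPM alone.

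With the log2 sum of these markers as a covariate, an alternative added after the data were seen, the log2 fold change of Efnb3 was -1.93 (standard error 0.19) and that of Efna5 was -0.68 (standard error 0.15). The marker Ryr2 was itself at 1489 ± 537.7 CPM against 783.0 ± 184.2 CPM in TgGRK5-MI (edgeR unadjusted p = 0.00903, adjusted p = 0.968), and the 7 other markers did not reach an unadjusted p of 0.05. For Efna5, the groups overlapped once its level was divided by the marker sum, from 0.110 to 0.207 per 1000 CPM in NLC-MI and from 0.0720 to 0.131 in TgGRK5-MI. All 8 macrophage markers had positive log2 fold changes (median 0.28), with 0 of them under an unadjusted p of 0.05 in edgeR. All 5 epicardial and mesothelial markers were positive as well (median 0.46, 0 under that level). In the mural list, Abcc9 and Cspg4 were lower (log2 fold changes -0.67 and -0.62, edgeR unadjusted p = 0.0314 and 0.0497, adjusted p = 1.00 for both), and the other 6 genes did not reach that level. Whether the RNA of Abcc9 and Cspg4 came from mural cells was not tested. Efnb3 and Efna5 had r = -0.62 and -0.63 with the macrophage markers (permutation p = 0.0589 and 0.0536, adjusted p = 0.366 for both). Their rho was -0.64 and -0.70 (permutation p = 0.0551 and 0.0306, adjusted p = 0.385 and 0.297). With the mural markers r was -0.45 and -0.26, and with the epicardial and mesothelial markers -0.22 and -0.07. For Efna5 and the cardiomyocyte markers r was 0.43 (permutation p = 0.216, adjusted p = 0.617). Beyond such correlations and the covariate, the part of any of these cells in the values of Efnb3 and Efna5 was not tested.

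Efnb2 went with endothelial RNA, and with markers of other cells as well. Its correlation with the summed endothelial markers over the 10 libraries was r = 0.79 (permutation p = 0.0067, adjusted p = 0.130 over 70 relations) and rho = 0.79 (permutation p = 0.00876, adjusted p = 0.165). Without the 2 libraries farthest from the median marker level r was 0.78, and 9 of the 10 endothelial markers had a positive group-centred r. Per 1000 CPM of endothelial markers, Efnb2 lay between 20.04 and 23.96 in NLC-MI and between 16.6 and 26.3 in TgGRK5-MI. The correlation with neutrophil markers was of like size, with r = 0.84 (permutation p = 0.00226, adjusted p = 0.111), rho = 0.84 (permutation p = 0.00342, adjusted p = 0.165) and r = 0.67 without the 2 farthest libraries. That list summed to only 9.75 to 29.9 CPM, and its defining marker Ly6g was at or under the floor throughout. For Efnb2, r was -0.66 with the cardiomyocyte markers (permutation p = 0.0361, adjusted p = 0.316) and 0.58 with the lymphocyte markers (permutation p = 0.0749, adjusted p = 0.375). The lymphocyte list summed to only 0.785 to 3.53 CPM, and 1 of its 6 genes passed the filter on low counts. With the arterial endothelial and the mural markers, r of Efnb2 was 0.60 and 0.58 (permutation p = 0.068 and 0.0814). Without the 2 farthest libraries these were 0.46 and 0.87. Efna4 had r = 0.83 with the arterial endothelial markers (permutation p = 0.00317, adjusted p = 0.111), rho = 0.79 (permutation p = 0.00945, adjusted p = 0.165) and r = 0.67 without the 2 farthest libraries. Its relation to the fibroblast markers was nearly as strong, with r = 0.80 (permutation p = 0.00745, adjusted p = 0.130), rho = 0.71 (permutation p = 0.0269, adjusted p = 0.297) and r = 0.67 without the 2 farthest, and r was 0.67 with the mural, 0.57 with the macrophage and -0.68 with the cardiomyocyte markers (adjusted p from 0.316 to 0.381). None of the 70 relations between 7 members and 10 lists had an adjusted p under 0.10.

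**Figure D4:**
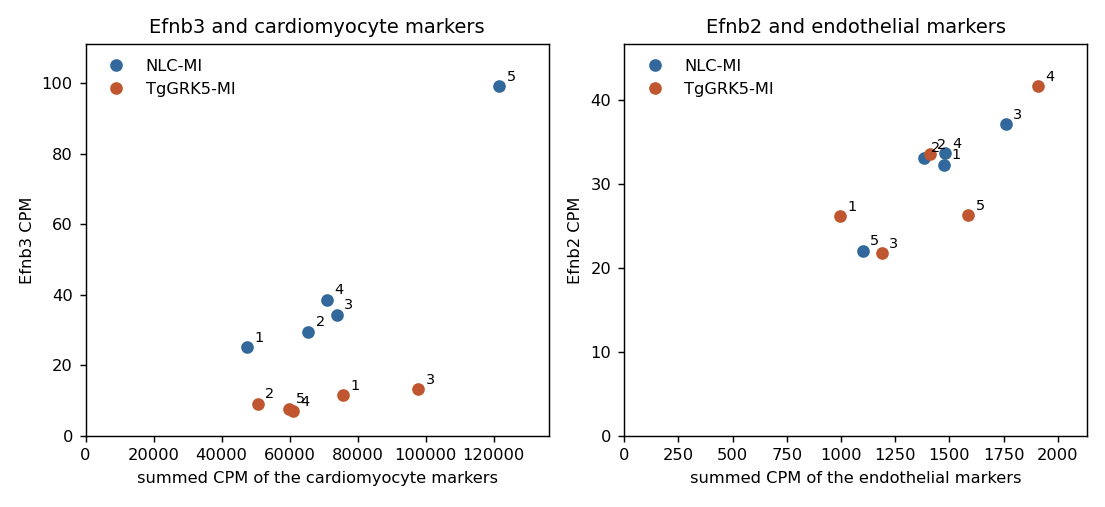
Left, Efnb3 CPM against the summed CPM of the 8 cardiomyocyte markers; right, Efnb2 CPM against the summed CPM of the 10 endothelial markers; each point is a library with its replicate number, NLC-MI in blue and TgGRK5-MI in orange. At like cardiomyocyte marker levels the TgGRK5-MI points lie far below the NLC-MI points for Efnb3, whereas the groups are mixed for Efnb2.

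Members did not vary as a unit between mice. Over the 21 pairs of tested members, the group-centred correlation over 10 libraries ranged from -0.76 for Efnb2 and Efnb3 to 0.69 for Efna2 and Efnb1, with 0.68 for Efna5 and Efnb3. The genes most like Efnb3 by this measure were Akt2 (0.98), Lrrc14b (0.97), Vdac1 (0.97), Cpt2 (0.96) and Asrgl1 (0.96). Those most like Efna5 were Tgfbr3 (0.95), Setmar (0.94), Lpcat3 (0.93), Hsd17b7 (0.91) and Zc3h6 (0.91). This measure leaves out the difference between the groups. In the order named, the 5 genes like Efnb3 had log2 fold changes of -0.27, 0.02, -0.04, -0.02 and 0.30, where Efnb3 had -2.22. Those like Efna5 had -0.30, 0.33, 0.12, -0.34 and -0.44, where Efna5 had -0.72.

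Genes next to the 2 lower members were examined as well. Around Efnb3, Wrap53 (1.6 kb away), which encodes a telomerase cofactor, had a log2 fold change of 0.03. Kdm6b, a histone demethylase gene 140.4 kb away, had -0.37, and Tmem88 at 155.9 kb had 0.06. Around Efna5, Fbxl17 at 176.1 kb and the tyrosine kinase gene Fer at 981.7 kb had -0.17 and 0.08. Nudt12 at 3590.8 kb and Adgre1 at 5120.7 kb on the other side had -0.14 and 0.18. The groups overlapped for each of these neighbours, and none had an unadjusted p under 0.05 in edgeR.

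**Figure D5:**
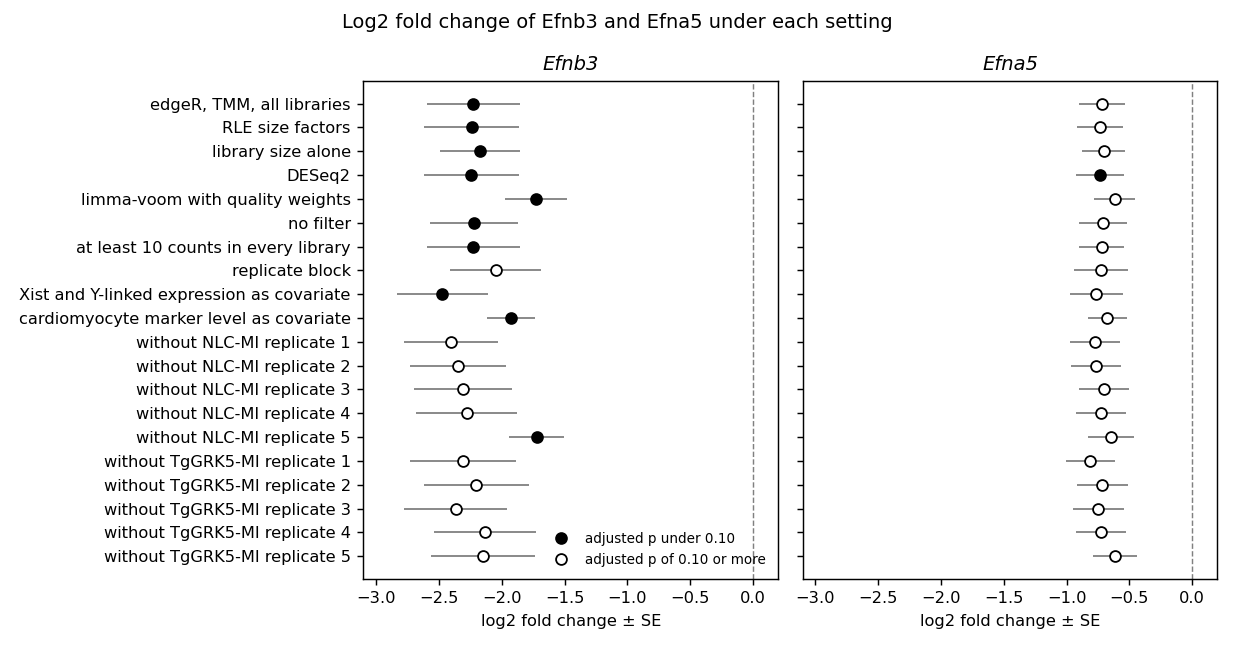
Log2 fold change ± standard error of Efnb3 (left) and Efna5 (right) under each setting; filled points have an adjusted p under 0.10 over all genes tested. Efnb3 runs from -2.47 to -1.72 and Efna5 from -0.81 to -0.62, and both are below 0 under every setting shown.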

How the data were processed

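Cardiomyocyte RNA of 10 mice was sequenced, and the deposited table holds counts for each Ensembl identifier as whole numbers that the authors left without normalization. The submitters' processing notes name mm10, Bowtie2, RSEM 1.2.31 and DESeq2, without their roles, so the counts may be rounded RSEM estimates. The use of strand is not given in the sources used here. Gene names, positions and exon lengths came from GENCODE M21 on GRCm38 (51596 of 51789 identifiers). The groups were compared in edgeR 4.0.16 (R 4.3.3) with TMM factors, filterByExpr and the quasi-likelihood F test (neither legacy nor robust), and p-values were adjusted by Benjamini-Hochberg over 15232 genes. CPM used the TMM factors, and correlations used log2 CPM with a prior count of 2 and 100000 permutations. The genes named were all members, the 3 receptors of each class with the highest level per length, receptors and partners with an unadjusted p under 0.05, the 5 genes most like Efnb3 and Efna5, and the nearest 2 tested coding genes on each side of both. The members and the lists were chosen with earlier results of these data known. Alternatives were RLE factors, library size alone, DESeq2 1.42.0, limma-voom (limma 3.58.1) with quality weights, other filters, the replicate number as a block, Xist minus Y-linked expression (log2, -8.94 to -7.74 in all libraries) as a covariate, each library left out, and the cardiomyocyte marker covariate. Y-linked expression far exceeded Xist in all libraries, so the Xist and Y-linked covariate does not set 1 sex against the other. The scripts were tested on simulated data. The result for 1 neighbouring gene is not reported here.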

Additional observations from a re-analysis of the deposited data

Results flagged for a closer look

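The Efnb3 level of NLC-MI replicate 5, 99.2 CPM, stood far from the 25.1 to 38.5 CPM of the 4 libraries beside it in its group. Its gap to the nearest was 0.819 of the range of the group, above Dixon's 95% value of 0.71. A gap above 0.71 arises by chance in about 1 in 20 groups, and 16 groups (8 genes in both genotypes) were examined. Without this library the log2 fold change of Efnb3 was -1.72 (edgeR adjusted p = 0.0314). It also had the highest cardiomyocyte marker sum, 121610 CPM, and its Efnb3 level per 1000 CPM of the markers, 0.815, was again the highest of the 10 libraries.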

How the results depend on the processing

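Efnb3 and Efna5 were lower under all 19 alternatives. The call of Efnb3 (adjusted p = 0.0947 in edgeR) was near the threshold. It was lost when any library but NLC-MI replicate 5 was left out (adjusted p from 0.130 to 0.367) and kept without that library (0.0314), so that 0 to 1 ligands were called, and with the replicate block (log2 fold change -2.05, adjusted p = 0.246), which called 0. DESeq2 called 2 ligands, Efnb3 (adjusted p = 6.23e-06) and Efna5 (0.0478), and the edgeR adjusted p of Efna5 was 0.510. Replicate numbers name different mice, and same-numbered libraries correlated at 0.0717, 0.662, 0.381, -0.341 and 0.0848. Libraries of different numbers were not compared, and the labels do not say whether a number marks anything shared. What the block stands for was therefore not tested. Efnb1 was lower in limma-voom at -0.37 (unadjusted p = 0.0404, adjusted p = 0.400), against -0.15 in edgeR. The direction of Efna1 turned between -0.10 and 0.05 with libraries left out (0.053 without NLC-MI replicate 5, 0.040 without TgGRK5-MI replicate 1), and that of Efnb2 between -0.23 and 0.0019, and to 0.015 with the Xist and Y-linked covariate. Over all genes, 8 were called higher and 4 lower. Higher calls were 13 with library size alone and with no filter, 42 with DESeq2, 41 with limma-voom, 4 with at least 10 counts in every library, 5 with the block, 2 with the Xist and Y-linked covariate, 21 with the cardiomyocyte marker covariate, and 2 to 7 with 1 library left out. Lower calls were 27 with DESeq2, 9 with limma-voom, 7 with the marker covariate and 1 to 3 with 1 library left out. Receptors with an unadjusted p under 0.05 were 0 or 1 higher with 1 library left out and 1 higher (Ephb2) with the block, and 1 lower (Epha6, at 2 counts or fewer per library) with no filter. Partners were 1 higher with limma-voom (Aph1b) and with no filter (Arhgef16), and 4 lower with limma-voom, 1 lower with the Xist and Y-linked covariate and 1 to 3 lower with 1 library left out. The causes were not tested. Efna2, Efna3 and Efna4 had at most 51 counts per library, and how far depth limits them was not tested.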
